A study of Mus musculus with 12 samples.

Results

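CD8+ and CD4+ T cells of STAT3-/- donors were compared in the liver of mice with a T cell graft, with 2 libraries of each lineage among the 12 liver libraries of the RNA-Seq series. Lethally irradiated WT BALB/c recipients had been given T cell-depleted bone marrow from WT C57BL/6 donors together with donor T cells. Donor T cells were sorted from the liver as H-2Kb+TCRβ+ cells of either lineage on day 6 after hematopoietic cell transplantation (HCT). The STAT3-/- donors, C57BL/6 mice, carried a floxed STAT3 gene that is deleted by Cre under the CD4 promoter, which is active in developing T cells of both lineages, so that the deletion was directed at the CD4+ and the CD8+ cells alike. The 4 libraries were chosen from the labels, and each CD8+ library was paired with the CD4+ library of the same replicate number, since both lineages came from the same livers and equal numbers were taken to mark the same livers. Each library holds cells combined from several recipients, and a replicate therefore stands for a pool. The other 8 libraries are the same 2 lineages from WT donors and from STAT3-/-PD-1-/- donors, which lack the inhibitory receptor PD-1 as well, with 2 pools for each genotype. They served to estimate the spread between libraries and to test whether the lineage difference varied with the donor genotype. No T cells from healthy mice or from before HCT entered the comparison, and each genotype had 2 pools.

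CD4+ T cells recognize peptides on MHC class II and act largely through help, by secreted cytokines and by ligands such as CD40L that engage other immune cells. CD8+ T cells recognize peptides on MHC class I and kill target cells with perforin and granzymes. The choice between the lineages is made in the thymus, where ThPOK, encoded by Zbtb7b, directs cells to the CD4+ fate and Runx3 to the CD8+ fate. In graft-versus-host disease (GVHD) both lineages infiltrate the liver, where the donor cells meet foreign MHC molecules of the recipient.

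Depth was similar, with 22273776 and 22692282 counts on genes in the CD4+ libraries and 24150842 and 24433942 in the CD8+ libraries. Levels are given as CPM, the counts scaled to library size, after TMM scaling, which corrects a library for the share of reads that its most abundant genes take up. Values before a fold change are those of pool 1 and pool 2, in that order. Of 25078 genes in the table, 12334 passed the filter on low counts and entered the test, which was the quasi-likelihood test of edgeR in a model with a term for each pool, its p-values adjusted after Benjamini and Hochberg. A gene is said to be called where its adjusted p was under 0.05, and a log2 fold change is that of CD8+ over CD4+ cells. SE is its standard error, back-calculated as its absolute value over the square root of the test's F statistic.

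The sorted populations were first checked against the co-receptors. Cd4, on chromosome 6 from 124864693 to 124888200 of mm10, encodes the co-receptor for MHC class II and stood at 1694 and 1887 CPM in the CD4+ libraries and at 0.647 and 0.777 CPM in the CD8+ libraries (log2 fold change -11.28, SE 0.49, edgeR adjusted p = 5.47e-06). Cd8a, which encodes the alpha chain of the co-receptor for MHC class I, stood at 0.424 and 1.96 CPM in CD4+ and at 1023 and 1184 CPM in CD8+ libraries (log2 fold change 9.87, SE 0.53, edgeR adjusted p = 1.39e-05). The beta chain gene Cd8b1 lies some distance upstream of Cd8a on chromosome 6 and had 11.7 and 9.42 CPM in CD4+ and 1036 and 1183 CPM in CD8+ cells (log2 fold change 6.72, SE 0.18, edgeR adjusted p = 1.20e-06). Each of the 4 libraries thus carried the co-receptor of its label. The Cd4 level in the CD8+ cells was 0.0382% and 0.0412% of that in the CD4+ cells of the same pool, and the Cd8a level in the CD4+ cells was 0.0414% and 0.165% of that in the CD8+ cells. For Cd8b1 the residual level in CD4+ cells was higher, at 1.13% and 0.796%. Per length of transcript, Cd8b1 was the more abundant of the 2 chains in CD8+ cells, with 762 RPKM (a level scaled to exon length and library size, mean of 2 libraries) beside 358 RPKM for Cd8a.

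The CD3 chain genes Cd3d, Cd3e and Cd3g, used by the T cell receptor of both lineages, were not called. Cd3e, a chain of the CD3 complex, had 629.9 and 733 CPM in CD4+ and 736 and 725 CPM in CD8+ libraries, and its log2 fold change was 0.10 (SE 0.11), with overlapping libraries. The remaining chain, Cd247, which encodes CD3 zeta, was higher in CD4+ cells, at 599 and 499.8 CPM against 378 and 415 CPM (log2 fold change -0.46, SE 0.11, edgeR adjusted p = 0.0195, call lost without the pool term and with pool 1 left out). Stat3 itself, the gene targeted in these donors, had 139.8 and 164 CPM in CD4+ and 149 and 135 CPM in CD8+ cells. The 2 lineages overlapped in Stat3, and its log2 fold change of -0.09 (SE 0.12) was not called (edgeR adjusted p = 0.623). In WT donors Stat3 had 368 and 467 CPM in CD4+ and 397 and 384 CPM in CD8+ cells, and in STAT3-/-PD-1-/- donors 157 and 219 CPM and 154 and 235 CPM. Each STAT3-/- library thus lay below each WT library, and the transcript was not absent in either lineage. Reads on Stat3 do not tell whether they include the deleted exons.

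**Figure D1:**
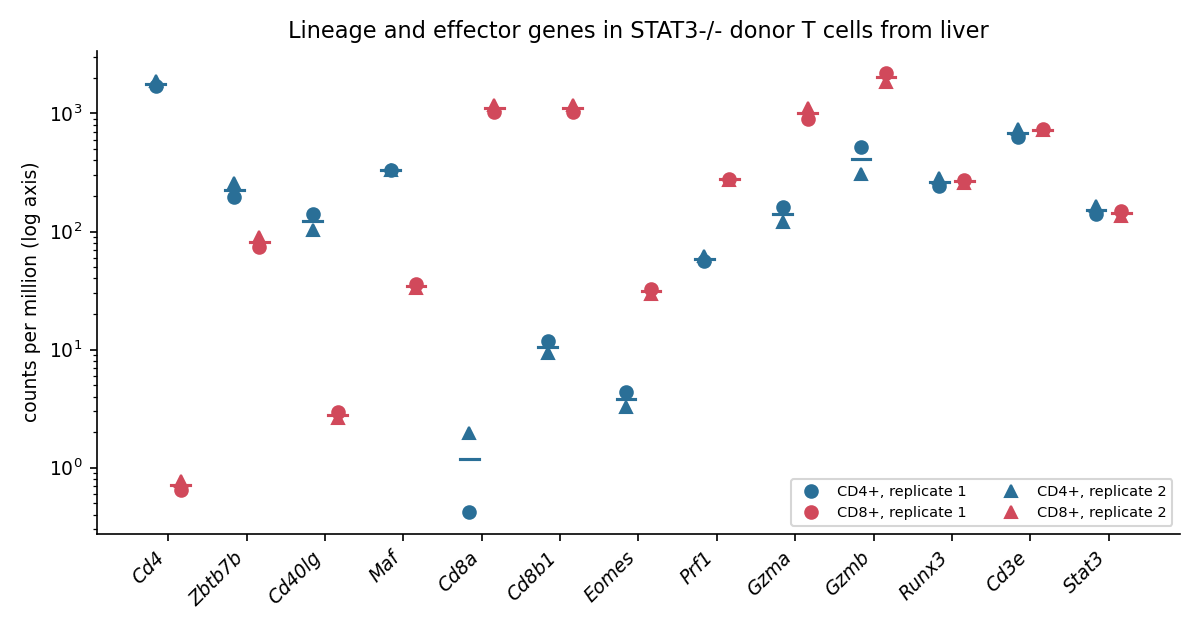
Levels of 13 genes in the 4 STAT3-/- libraries, in CPM on a log axis, with circles for pool 1, triangles for pool 2, and a line at the mean of each lineage. Cd4, Cd40lg and Maf lie far higher in CD4+ cells, Cd8a, Cd8b1, Eomes, Prf1, Gzma and Gzmb higher in CD8+ cells, and Runx3, Cd3e and Stat3 overlap.

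The transcriptomes of the 2 lineages differed at 3077 of the 12334 genes, or 24.9% of those tested, with 1494 genes (12.1%) higher in CD8+ and 1583 (12.8%) higher in CD4+ cells (edgeR's quasi-likelihood test, adjusted p under 0.05). These 12.1% and 12.8% are the background for the gene lists, and the share of a list's tested members is given in brackets after its count. At an unadjusted p under 0.05 there were 4643 genes. Most differences were small, with a median absolute log2 fold change of 0.63 among called genes. A log2 fold change of at least 1 was reached by 371 called genes in CD8+ and by 477 in CD4+ cells, and one of at least 2 by 143 and 193 genes. Both pools gave the same direction for each of the 3077 genes, which the test, being fitted to these pools, favors. Across genes, which are not independent replicates, the log2 ratios of the pools had a Pearson correlation of 0.785 over all genes tested and of 0.945 over called genes. Without the pool term, 1187 genes were called, 593 higher in CD8+ and 594 higher in CD4+ cells.

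**Figure D2:**
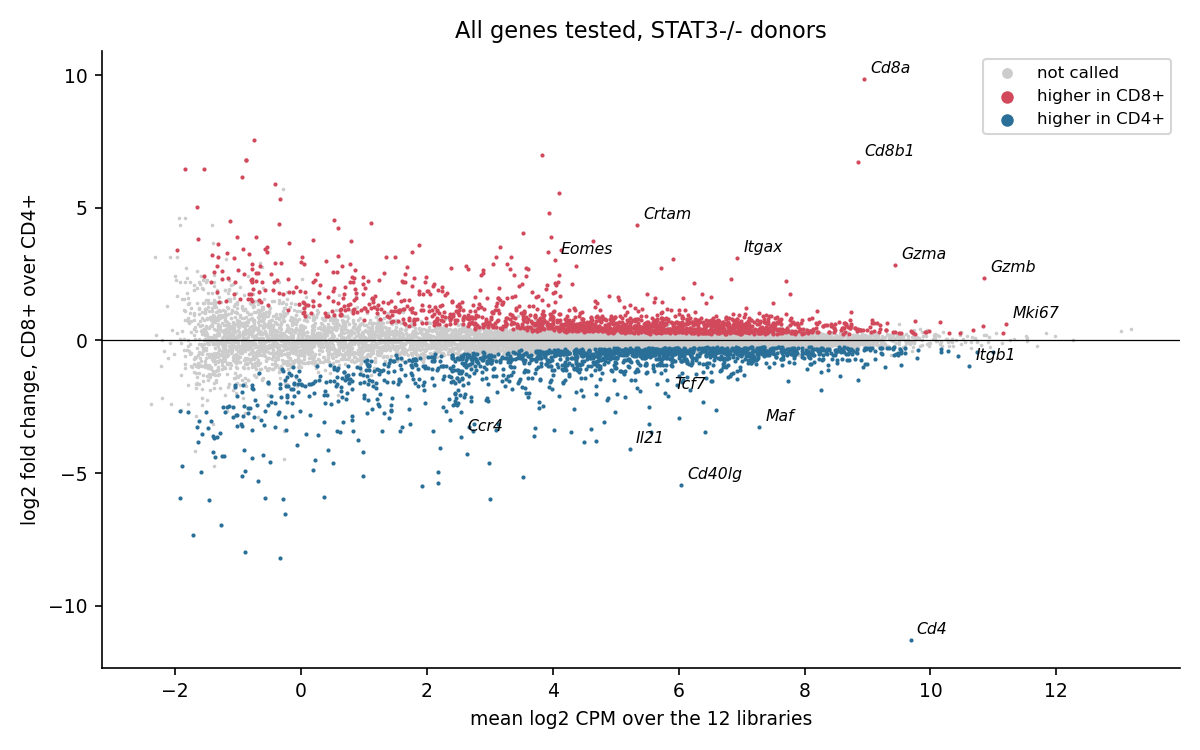
Log2 fold change of CD8+ over CD4+ T cells of STAT3-/- donors against the mean log2 CPM over the 12 libraries, 1 point for each of the 12334 genes tested, colored where called. The co-receptor genes stand apart from the other genes, and called genes lie on both sides of 0, 1494 above and 1583 below.

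**Figure D3:**
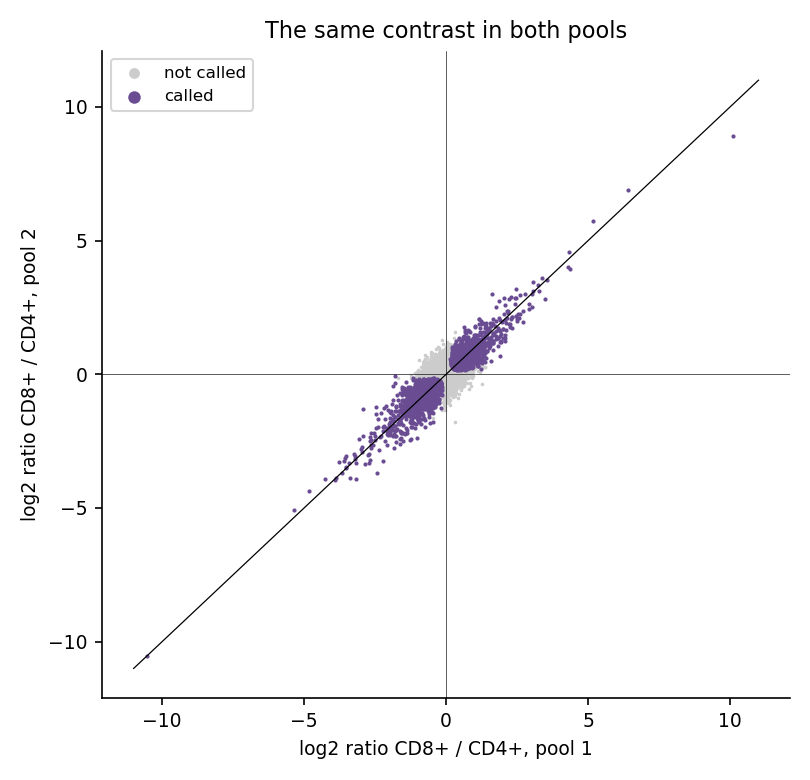
Log2 ratio of CD8+ over CD4+ CPM (0.5 CPM added) in pool 2 against pool 1, 1 point per gene, with the line of equal ratios. Called genes (dark) have the same sign in both pools, with a correlation of 0.945 between the pools.

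In all, 5863 genes (47.5%) had both CD8+ libraries above both CD4+ libraries or below them. Of the 3077 called genes, 2808 had no such overlap and 269 did. The genes with overlap include several whose level differed more between the pools than between the lineages. Nr4a1, an immediate early gene of T cell receptor signaling, had 462 and 52.6 CPM in CD4+ and 258 and 28.5 CPM in CD8+ cells. Pool 1 was many times higher than pool 2 in both lineages, and within each pool the CD8+ cells were lower (log2 fold change -0.86, SE 0.12, edgeR adjusted p = 0.00127). Il10, an anti-inflammatory cytokine, behaved alike, with 155 and 28 CPM in CD4+ and 63 and 14.8 CPM in CD8+ cells (log2 fold change -1.13, SE 0.17, edgeR adjusted p = 0.00195). Ctla4, an inhibitory receptor that competes with CD28, had 1517 and 363 CPM and 1015 and 289 CPM (log2 fold change -0.45, SE 0.11, edgeR adjusted p = 0.0176), and Bhlhe40, a transcription factor induced by activation, 2842 and 703 CPM and 2052 and 440.3 CPM (log2 fold change -0.57, SE 0.13, edgeR adjusted p = 0.0148). These 4 calls rested on the pool term, since none of the 4 genes was called without it, and with the first CD4+ library left out and no pool term the direction turned in each. What set the pools apart was not tested, and the sample titles number the libraries of each replicate in a series of their own, so that the pool and what those numbers mark cannot be told apart.

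Among the lineage-defining transcription factors, Zbtb7b and Gata3 were higher in CD4+ cells, Tox was higher in CD8+ cells, and Runx3 was not called. Zbtb7b, the CD4+ fate factor ThPOK, had 195 and 258 CPM in CD4+ and 73.5 and 90.3 CPM in CD8+ cells (log2 fold change -1.46, SE 0.10, edgeR adjusted p = 5.72e-05). It was lower in both CD8+ libraries but remained well above the floor of detection there. Gata3, which acts upstream of ThPOK and in Th2 cells, had 248 and 267 CPM and 149 and 110.3 CPM (log2 fold change -1.0, SE 0.15, edgeR adjusted p = 0.00204). Runx3 had 243 and 285 CPM in CD4+ and 275 and 257 CPM in CD8+ cells, with a log2 fold change of 0.01 (SE 0.11) and an edgeR adjusted p of 0.946. The libraries of the lineages overlapped, so that no difference in the Runx3 transcript was detectable between 2 and 2 pools. Tox, an HMG-box factor needed for CD4+ development and linked to chronic stimulation, was higher in CD8+ cells, at 296 and 235 CPM against 207 and 180.0 CPM (log2 fold change 0.45, SE 0.12, edgeR adjusted p = 0.0293), a call that was lost without the pool term and with either pool left out.

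Of 40 effector and lineage transcription factors, these 4 included, 10 (25%) were higher in CD8+, 13 (32.5%) higher in CD4+ cells, and 17 were not called, where the shares of all genes tested were 12.1% and 12.8%. The largest difference in favor of CD4+ cells was that of Maf, a driver of Il10 and Il21, with 333 and 332 CPM in CD4+ and 36.1 and 33 CPM in CD8+ cells (log2 fold change -3.27, SE 0.12, edgeR adjusted p = 3.21e-06). Eomes, the T-box factor of cytotoxic and memory CD8+ cells, had 4.33 and 3.24 CPM in CD4+ and 32.6 and 29.4 CPM in CD8+ cells (log2 fold change 3.04, SE 0.16, edgeR adjusted p = 1.39e-05). Its relative Tbx21, which encodes T-bet, had 124 and 219 CPM and 139 and 218 CPM and overlapped (log2 fold change 0.08, SE 0.10). Zbtb32 had 47.8 and 39.9 CPM in CD4+ and 149 and 148 CPM in CD8+ cells (log2 fold change 1.77, SE 0.09, edgeR adjusted p = 1.39e-05). Ikzf2, which encodes Helios, showed the reverse, with 123 and 112 CPM in CD4+ and 44.1 and 39.7 CPM in CD8+ cells (log2 fold change -1.49, SE 0.08, edgeR adjusted p = 1.67e-05). Ets1 and Ikzf1, the most abundant members that were not called, differed by -0.23 (SE 0.09) and 0.07 (SE 0.10) on the log2 scale.

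Perforin and the main granzymes were higher in CD8+ cells, although CD4+ cells expressed them as well. Of 20 members tested, 8 (40%) were higher in CD8+ and 1 (5%) higher in CD4+ cells, where 12.1% and 12.8% of all genes tested were called in these directions. The other 11 were not called. Over the 20 members the median log2 fold change was 0.19, beside -0.0025 over all genes tested, and the list medians of the pools were unlike, at 0.06 in pool 1 and 0.31 in pool 2. Prf1, which encodes the pore-forming perforin, had 55.9 and 61.9 CPM in CD4+ and 281 and 272 CPM in CD8+ libraries (log2 fold change 2.23, SE 0.12, edgeR adjusted p = 1.39e-05). Gzmb, the granzyme that triggers apoptosis of the target cell, had 521 and 306 CPM in CD4+ and 2217 and 1845 CPM in CD8+ cells (log2 fold change 2.34, SE 0.13, edgeR adjusted p = 1.89e-05). Both CD8+ libraries lay above both CD4+ libraries, and the CD4+ pools differed from each other. Gzma, another granzyme, had 162 and 119.6 CPM in CD4+ and 897 and 1104 CPM in CD8+ cells (log2 fold change 2.83, SE 0.20, edgeR adjusted p = 5.72e-05), and Gzmk 53.1 and 36.9 CPM and 194 and 248 CPM (log2 fold change 2.31, SE 0.20, edgeR adjusted p = 1.68e-04). Per length of transcript Gzmb led, with 1366 RPKM in CD8+ and 273 RPKM in CD4+ cells, followed in CD8+ cells by Gzma with 1154 RPKM.

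Other granule genes differed less. Nkg7, a granule membrane protein needed for exocytosis, had 528 and 512 CPM in CD4+ and 751 and 788 CPM in CD8+ cells (log2 fold change 0.57, SE 0.09, edgeR adjusted p = 0.00238). Ctsw, a cathepsin of cytotoxic cells, had 256 and 281 CPM and 359 and 427 CPM (log2 fold change 0.55, SE 0.08, edgeR adjusted p = 0.00167). Srgn, the granule proteoglycan serglycin, was the member higher in CD4+ cells, with 1429.6 and 633 CPM against 558 and 452 CPM (log2 fold change -0.92, SE 0.19, edgeR adjusted p = 0.0104). The call of Srgn was lost without the pool term and with pool 1 left out. Fasl, the ligand that kills through Fas, had 231 and 69 CPM in CD4+ and 178 and 117 CPM in CD8+ cells and overlapped (log2 fold change 0.18, SE 0.29). Serpinb9 and Serpinb6b, inhibitors that shield the killer cell from its own granzymes, were not called. Gzmc and Gzmf, near copies of each other, were called higher in CD8+ cells but did not exceed 10.2 CPM in any library, and the counting may have split reads between them. Both calls were lost without the pool term.

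The promoters of granule genes were read from the RefSeq promoter table (build GRCm38.p6), which held 7 of the 8 granule genes that were higher in CD8+ cells. The letters TGTGGT, or ACCACA on the other strand, are the core bound by RUNX factors, and 6 of the 7 windows of 250 bases before the transcription start contained them. Gzmc and Gzmf are near copies and contribute to that count as 1 sequence family. Among all 32851 promoters, 14% held the letters, as did 11.3% of the promoters of genes tested, 16.9% of those of genes at least 1 log2 unit higher in CD8+ and 14.1% of those at least 1 log2 unit higher in CD4+ cells. The letters GGTGTGA, or TCACACC, of a T-box site were found in 2 of the 7 windows and in 3.33% of all promoters. A match is a description of the sequence and does not show that a factor bound it. The windows of Prf1, Gzma and Gzmb are shown, as those of perforin and of the most abundant granzymes, 5′ to 3′ on the strand of the gene, with the RUNX letters in capitals. They lie at chr10:61297586-61297835 (plus strand), chr13:113100982-113101231 (minus strand) and chr14:56262335-56262584 (minus strand).
Prf1: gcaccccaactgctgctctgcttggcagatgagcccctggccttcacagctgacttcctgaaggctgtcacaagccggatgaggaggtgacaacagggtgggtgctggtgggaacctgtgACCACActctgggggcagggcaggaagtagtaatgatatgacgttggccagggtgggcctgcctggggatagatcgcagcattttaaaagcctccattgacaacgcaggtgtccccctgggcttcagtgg
Gzma: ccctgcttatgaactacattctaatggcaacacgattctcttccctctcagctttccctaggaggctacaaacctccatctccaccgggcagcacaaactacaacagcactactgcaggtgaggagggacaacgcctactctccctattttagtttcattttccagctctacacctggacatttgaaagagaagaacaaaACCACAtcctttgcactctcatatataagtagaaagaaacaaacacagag
Gzmb: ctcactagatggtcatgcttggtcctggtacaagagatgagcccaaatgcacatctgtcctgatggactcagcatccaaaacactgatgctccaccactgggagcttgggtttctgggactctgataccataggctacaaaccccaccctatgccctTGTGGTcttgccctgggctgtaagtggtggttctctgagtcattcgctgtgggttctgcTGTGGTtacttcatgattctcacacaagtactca

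Several receptors shared with natural killer (NK) cells were higher in CD8+ cells. Of 22 receptors and adaptors of a list for NK cells, 8 (36.4%, beside 12.1% of all genes tested) were higher in CD8+ cells. Of the others, 1 (4.55%) was higher in CD4+ cells and 13 were not called. The median log2 fold change was 0.77, and the medians of the log2 ratios in the pools, which are smaller for genes of low level since 0.5 CPM was added, were 0.25 and 0.55. Crtam, a cell adhesion receptor of activated cytotoxic cells, had 2.64 and 3.56 CPM in CD4+ and 60.8 and 65.2 CPM in CD8+ libraries (log2 fold change 4.35, SE 0.16, edgeR adjusted p = 3.21e-06). Cd244a, which encodes the SLAM receptor 2B4, had 1.55 and 1.38 CPM and 20.9 and 22.5 CPM (log2 fold change 3.89, SE 0.18, edgeR adjusted p = 7.78e-06), and Cd160, a receptor for HVEM, 30.4 and 20.7 CPM and 103 and 121 CPM (log2 fold change 2.15, SE 0.18, edgeR adjusted p = 1.45e-04). Klrk1, the activating receptor NKG2D, had 157 and 115 CPM in CD4+ and 322 and 403 CPM in CD8+ cells (log2 fold change 1.42, SE 0.23, edgeR adjusted p = 0.00304). Klrd1, the CD94 chain that pairs with NKG2 proteins, overlapped, with 208 and 125 CPM and 145 and 176 CPM (log2 fold change -0.01, SE 0.25). Klrb1f was the member higher in CD4+ cells, with 9.7 and 8.22 CPM against 3.41 and 3.31 CPM (log2 fold change -1.41, SE 0.24, edgeR adjusted p = 0.00407). Members of these clustered families resemble each other in sequence, and reads may have been split among them.

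Cd40lg, Tnfsf11 and Tnfrsf25 of the TNF family were among the largest differences in favor of CD4+ cells (mean log2 CPM at least 3). Of 23 costimulatory molecules, 14 (60.9%, beside 12.8% of all genes tested) were higher in CD4+ cells, 2 (8.70%, beside 12.1%) higher in CD8+ cells and 7 not called, with a median log2 fold change of -0.56. Cd40lg, the ligand through which helper cells license B cells and dendritic cells, had 142 and 104 CPM in CD4+ and 2.93 and 2.62 CPM in CD8+ cells (log2 fold change -5.45, SE 0.12, edgeR adjusted p = 4.34e-07). It had the smallest p of all genes tested. Tnfrsf4, the receptor OX40, had 133 and 94.4 CPM in CD4+ and 26.9 and 18.7 CPM in CD8+ cells (log2 fold change -2.32, SE 0.09, edgeR adjusted p = 3.29e-06). Tnfsf11, which encodes RANKL, had 57.4 and 17.7 CPM and 3.75 and 1.39 CPM (log2 fold change -3.84, SE 0.16, edgeR adjusted p = 4.09e-06), so that pool 1 was higher in both lineages and the CD4+ cells higher in both pools. Tnfrsf25, the receptor DR3, had 26 and 28.3 CPM and 1.73 and 2.78 CPM (log2 fold change -3.59, SE 0.20, edgeR adjusted p = 1.64e-05). Icos, a costimulator of the CD28 family, had 873 and 529 CPM in CD4+ and 415 and 273 CPM in CD8+ cells (log2 fold change -1.01, SE 0.09, edgeR adjusted p = 1.88e-04), and Cd28 itself overlapped, with 1245 and 657 CPM and 914 and 419.9 CPM (log2 fold change -0.55, SE 0.08, edgeR adjusted p = 0.00201). The Cd28 call was lost without the pool term, and without that term its log2 fold change turned to 0.0168 when the first CD4+ library was left out. The 2 members higher in CD8+ cells were Tnfrsf9, which encodes 4-1BB, with 198 and 146 CPM against 102 and 74.5 CPM (log2 fold change 0.96, SE 0.08, edgeR adjusted p = 1.10e-04), and Cd27, with 273 and 279 CPM against 162 and 189.6 CPM (log2 fold change 0.65, SE 0.08, edgeR adjusted p = 9.77e-04).

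Most cytokine genes were lower in CD8+ cells. Of 19 tested, 12 (63.2%, beside 12.8% of all genes tested) were higher in CD4+ cells, 1 (5.26%) higher in CD8+ cells and 6 not called. The median log2 fold change was -1.22, and the medians of the pool ratios, with 0.5 CPM added, were -0.99 and -0.62. Il21, a cytokine of B cell help that signals through STAT3 in the receiving cell, had 66.2 and 45.3 CPM in CD4+ and 4.01 and 2.58 CPM in CD8+ cells (log2 fold change -4.08, SE 0.16, edgeR adjusted p = 4.01e-06). Csf1, the growth factor of macrophages, had 147 and 216 CPM and 73.4 and 67.4 CPM (log2 fold change -1.34, SE 0.19, edgeR adjusted p = 0.0015). Tnfsf10, the death ligand TRAIL, had 88.7 and 96.4 CPM and 33.1 and 39 CPM (log2 fold change -1.36, SE 0.08, edgeR adjusted p = 2.97e-05). Tnf was lower in CD8+ cells as well, at 9.67 and 10.6 CPM against 21.2 and 17.9 CPM (log2 fold change -0.94, SE 0.14, edgeR adjusted p = 0.00204, call lost without the pool term). Ifng, the signature cytokine of type 1 responses, had 450.3 and 126 CPM in CD4+ and 329 and 192 CPM in CD8+ cells, and its log2 fold change was 0.07 (SE 0.22, edgeR adjusted p = 0.851). The spread between pools was wider than the difference between lineages in Ifng. The member called higher in CD8+ cells was Il17a, which no read reached in the CD4+ libraries and which had 0.302 and 0.123 CPM in the CD8+ libraries, a level near the floor of detection, and the call was lost without the pool term and with either pool left out.

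Many genes of helper subsets were higher in CD4+ cells. Of 11 genes of follicular helper cells, 8 (72.7%, beside 12.8% of all genes tested) were higher in CD4+ cells and none higher in CD8+ cells, with a median of -1.20. They include Bcl6, the master regulator of that subset, which was itself low at 7.2 and 8.84 CPM in CD4+ and 1.64 and 1.92 CPM in CD8+ cells (log2 fold change -2.17, SE 0.23, edgeR adjusted p = 3.92e-04), and Cxcr5, the receptor that guides cells to follicles, at 2.92 and 2.84 CPM and 0.992 and 1.1 CPM (log2 fold change -1.45, SE 0.29, edgeR adjusted p = 0.0084, call lost with pool 1 left out). Of 10 Th2 genes, 8 (80%) were higher in CD4+ and none in CD8+ cells (median -1.07), among them Il1rl1, which encodes the IL-33 receptor ST2. Il1rl1 had 269.9 and 262 CPM in CD4+ and 125 and 159 CPM in CD8+ cells (log2 fold change -0.91, SE 0.10, edgeR adjusted p = 5.01e-04). Of 12 Th1 genes, 5 (41.7%) were higher in CD4+ and 1 (8.33%) higher in CD8+ cells (median -0.04), and Il12rb2, the signaling chain of the IL-12 receptor, had 301 and 314 CPM in CD4+ and 198 and 201 CPM in CD8+ cells (log2 fold change -0.62, SE 0.08, edgeR adjusted p = 0.00105). Of 10 Th17 genes, 3 (30%) were higher in CD4+ and 2 (20%) higher in CD8+ cells (median -0.46).

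Of 14 genes of regulatory T cells, 6 (42.9%, beside 12.8% of all genes tested) were higher in CD4+ cells, and the 2 (14.3%) higher in CD8+ cells were a share near the 12.1% of all genes (median -0.44). Foxp3, the factor that defines these cells, did not differ beyond the spread, with 16.3 and 25.1 CPM in CD4+ and 18.3 and 28.7 CPM in CD8+ cells (log2 fold change 0.18, SE 0.25). Both lineages overlapped in it, and its level was higher in pool 2 than in pool 1. Ebi3, a subunit of IL-27 and IL-35, had 11.3 and 12.8 CPM in CD4+ and 0.431 and 0.532 CPM in CD8+ cells (log2 fold change -4.62, SE 0.23, edgeR adjusted p = 1.01e-05), and Izumo1r, the folate receptor 4, 23.4 and 28.5 CPM and 3.67 and 5.76 CPM (log2 fold change -2.47, SE 0.14, edgeR adjusted p = 2.05e-05). In these bulk libraries, fewer cells of a subset and less RNA per cell cannot be told apart.

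**Figure D4:**
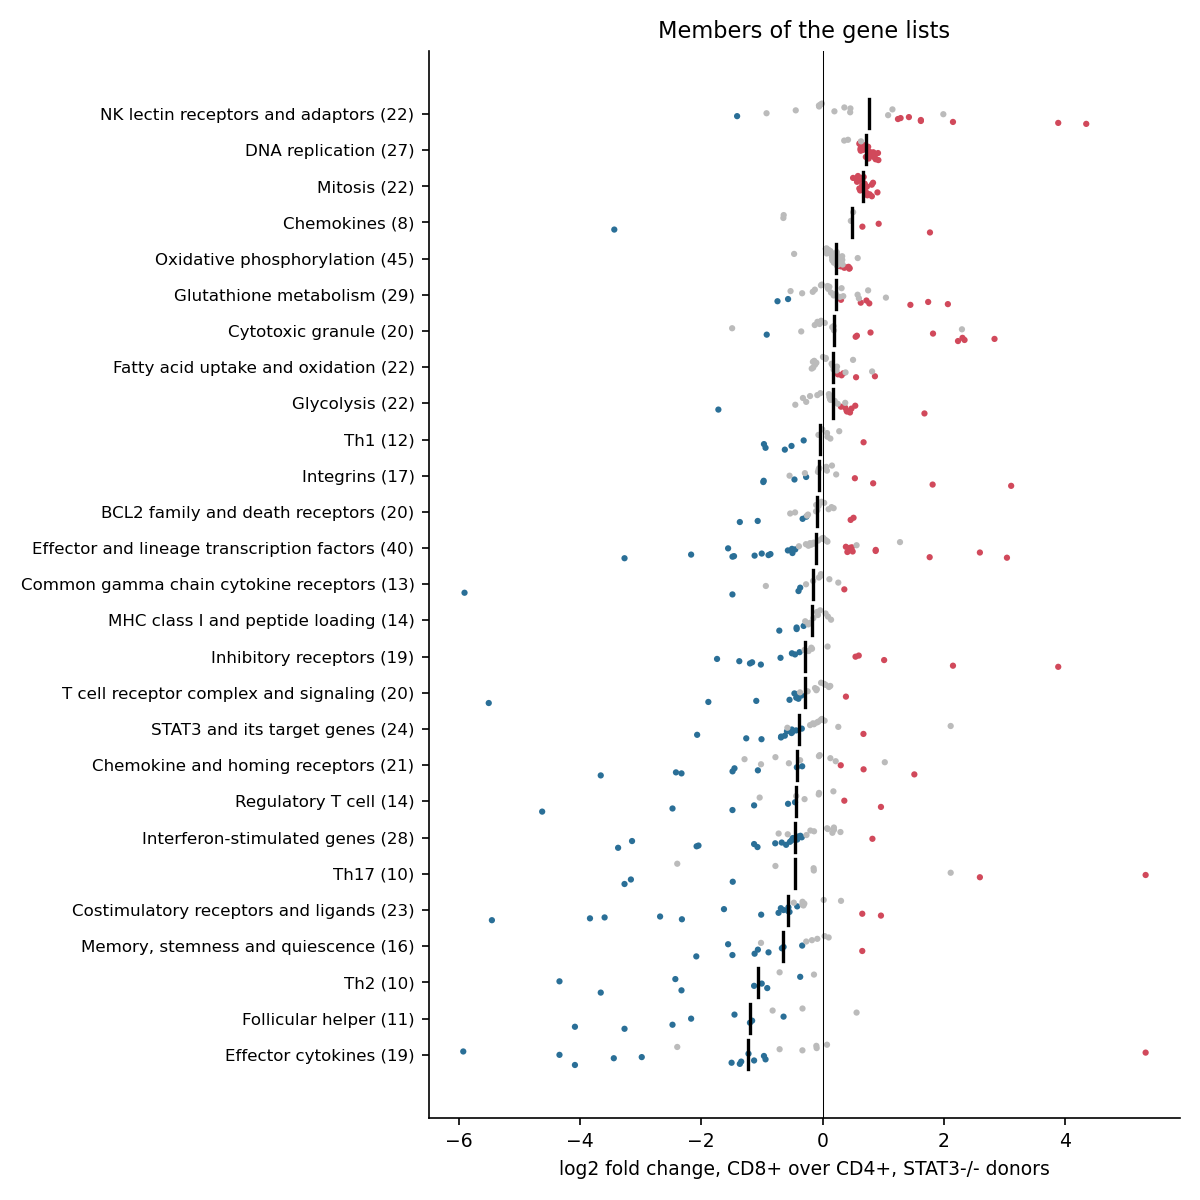
Log2 fold change of CD8+ over CD4+ T cells of STAT3-/- donors for each member tested of 27 gene lists, the CD4 and CD8 lineage lists left out (number of members in brackets), sorted by median, with red for members called higher in CD8+ cells, blue for those called higher in CD4+ cells, gray for those not called, and a black bar at the median. Mitosis and DNA replication genes form tight groups above 0 (medians 0.67 and 0.71), and the cytokine, follicular helper and Th2 lists lie lowest of the 27 (medians -1.22, -1.20 and -1.07).

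Among the chemokines and the receptors that guide T cells into tissue, single genes differed strongly. Ccl5, a chemokine made by cytotoxic cells, had 156 and 165 CPM in CD4+ and 520.5 and 576 CPM in CD8+ cells (log2 fold change 1.77, SE 0.09, edgeR adjusted p = 1.39e-05). Ccl1, the ligand of CCR8, had 19 and 21.3 CPM in CD4+ and 1.6 and 2.13 CPM in CD8+ cells (log2 fold change -3.43, SE 0.18, edgeR adjusted p = 1.41e-05). Of 8 chemokines tested, 3 (37.5%) were higher in CD8+ cells, Ccl5, Ccl4 and Xcl1. The calls of Ccl4 and Xcl1 were lost without the pool term, and the direction of Xcl1 turned when the first CD8+ library was left out as well. Among chemokines, the 1 (12.5%) higher in CD4+ cells was a share near the 12.8% of all genes tested. Of 21 chemokine and homing receptors, 8 (38.1%) were higher in CD4+ cells, beside 12.8% of all genes tested, whereas the 3 (14.3%) higher in CD8+ cells were a share near the 12.1% of all genes. Ccr4, a receptor of Th2 and regulatory cells, had 8.19 and 12.2 CPM in CD4+ and 0.82 and 0.777 CPM in CD8+ cells (log2 fold change -3.66, SE 0.21, edgeR adjusted p = 1.94e-05). Ccr8 had 23 and 16.4 CPM and 3.97 and 3.8 CPM (log2 fold change -2.33, SE 0.15, edgeR adjusted p = 3.05e-05). Cx3cr1, the fractalkine receptor of effector CD8+ cells, had 24.1 and 32.4 CPM in CD4+ and 73.4 and 86.8 CPM in CD8+ cells (log2 fold change 1.51, SE 0.09, edgeR adjusted p = 2.97e-05). Cxcr6, which retains T cells in the liver, was abundant in both lineages and not called, with 652 and 529.6 CPM and 402 and 514 CPM (log2 fold change -0.37, SE 0.17).

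Of 17 integrin genes, 4 (23.5%) were higher in each lineage, beside 12.1% and 12.8% of all genes tested, and 9 were not called. Itgax, which encodes CD11c, had 25.9 and 27.7 CPM in CD4+ and 220.4 and 243 CPM in CD8+ cells (log2 fold change 3.11, SE 0.13, edgeR adjusted p = 4.20e-06). Itgb1, the common beta 1 chain, had 3615 and 2681 CPM in CD4+ and 1540.0 and 1622 CPM in CD8+ cells (log2 fold change -0.98, SE 0.13, edgeR adjusted p = 0.00106). Both CD8+ libraries lay below both CD4+ libraries. Itga4 and Itgal, the alpha chains of VLA-4 and LFA-1, were not called, with log2 fold changes of 0.22 (SE 0.08) and -0.06 (SE 0.08).

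The list of inhibitory receptors, which also holds ligands such as Pdcd1lg2, showed no common direction. Of 19 members, 5 (26.3%) were higher in CD8+ and 9 (47.4%) higher in CD4+ cells, beside 12.1% and 12.8% of all genes tested, and 5 were not called (median -0.30). Pdcd1, which encodes PD-1, had 261 and 323 CPM in CD4+ and 424 and 454 CPM in CD8+ cells (log2 fold change 0.60, SE 0.13, edgeR adjusted p = 0.0117). The call of Pdcd1 was lost without the pool term (edgeR adjusted p = 0.282) and with pool 1 left out (edgeR adjusted p = 0.0701). Lag3, a receptor for MHC class II, had 104 and 131 CPM in CD4+ and 239.8 and 231 CPM in CD8+ cells (log2 fold change 1.01, SE 0.13, edgeR adjusted p = 0.00103), and Havcr2, which encodes TIM-3, 260.0 and 190.1 CPM and 344 and 305 CPM (log2 fold change 0.54, SE 0.10, edgeR adjusted p = 0.00672, call lost without the pool term and with pool 2 left out). With Cd244a and Cd160, these made up the 5 that were higher in CD8+ cells. The CD4+ side included Cd200, with 31.6 and 29.2 CPM against 13.5 and 13 CPM (log2 fold change -1.20, SE 0.11, edgeR adjusted p = 2.17e-04), and Pdcd1lg2, which encodes the PD-1 ligand PD-L2, with 44.3 and 52 CPM against 23 and 24.4 CPM (log2 fold change -1.02, SE 0.09, edgeR adjusted p = 1.97e-04). 

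Genes of memory, stemness and quiescence were higher in CD4+ cells in 9 of 16 cases (56.25%, beside 12.8% of all genes tested) and higher in CD8+ cells in 1 (6.25%), Cd27, with a median of -0.66. Tcf7, which encodes TCF-1 and marks cells with the capacity for self-renewal, had 89.3 and 96.3 CPM in CD4+ and 22.1 and 21.7 CPM in CD8+ cells (log2 fold change -2.08, SE 0.13, edgeR adjusted p = 3.38e-05). Il7r, the receptor for the survival cytokine IL-7, had 707 and 881 CPM and 236 and 336 CPM (log2 fold change -1.49, SE 0.13, edgeR adjusted p = 1.89e-04). The libraries did not overlap in either gene. Satb1, a chromatin organizer of T cell identity, had 289 and 350.3 CPM in CD4+ and 170.1 and 173 CPM in CD8+ cells (log2 fold change -0.89, SE 0.09, edgeR adjusted p = 3.52e-04). Bcl2 and Klf2, the most abundant members that were not called, had log2 fold changes of -0.09 (SE 0.08) and 0.03 (SE 0.16). Of 13 genes of the common gamma chain receptors, their ligands and their signaling, 1 (7.69%) was higher in CD8+ and 4 (30.8%) higher in CD4+ cells, and 8 were not called, among them the receptor chain Il2rb and the kinase Jak1. Il2rg, the common chain, had 907 and 876 CPM in CD4+ and 678 and 676 CPM in CD8+ cells (log2 fold change -0.40, SE 0.08, edgeR adjusted p = 0.00703, call lost with pool 1 left out).

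Genes of the JAK-STAT pathways around STAT3 and its known targets were more often higher in CD4+ than in CD8+ cells. Of 24 such genes, 12 (50%, beside 12.8% of all genes tested) were higher in CD4+ and 1 (4.17%) higher in CD8+ cells. The other 11 were not called. The list median was -0.39 in STAT3-/-, -0.39 in WT and -0.25 in STAT3-/-PD-1-/- donors. Cish, a feedback inhibitor induced mainly by STAT5, had 123 and 126 CPM in CD4+ and 62.2 and 61.9 CPM in CD8+ cells (log2 fold change -1.01, SE 0.10, edgeR adjusted p = 2.51e-04), and Socs2, another feedback inhibitor, 21.6 and 23.6 CPM and 9.88 and 8.99 CPM (log2 fold change -1.26, SE 0.12, edgeR adjusted p = 2.65e-04). Socs3, the classic target of STAT3, was not called, with 100.5 and 29.3 CPM in CD4+ and 86.3 and 27.5 CPM in CD8+ cells (log2 fold change -0.16, SE 0.16). The pools differed more in Socs3 than the lineages did. Jak2 had 520.4 and 463 CPM in CD4+ and 307 and 303 CPM in CD8+ cells (log2 fold change -0.69, SE 0.08, edgeR adjusted p = 6.22e-04), and Il27ra, a receptor chain for IL-27, 138 and 161 CPM and 85.5 and 100.4 CPM (log2 fold change -0.68, SE 0.08, edgeR adjusted p = 8.62e-04). Il10rb was the 1 member higher in CD8+ cells, with 63 and 81.8 CPM against 43.1 and 47.1 CPM (log2 fold change 0.67, SE 0.10, edgeR adjusted p = 0.00215, call lost without the pool term). The list in part names genes that other STAT proteins induce.

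Interferon-stimulated genes were higher in CD4+ cells in 16 of 28 cases (57.1%, beside 12.8% of all genes tested) and higher in CD8+ cells in 1 (3.57%), with a median of -0.45. Gbp6, a guanylate-binding protein of the interferon-gamma response, had 82.9 and 79.1 CPM in CD4+ and 37.7 and 39.2 CPM in CD8+ cells (log2 fold change -1.07, SE 0.09, edgeR adjusted p = 1.22e-04). Oasl2, of the oligoadenylate synthetase family, had 8.76 and 10.4 CPM and 2.59 and 1.96 CPM (log2 fold change -2.08, SE 0.19, edgeR adjusted p = 2.36e-04). The libraries of the lineages did not overlap in either gene. Mx1, an antiviral GTPase, was the member higher in CD8+ cells, with 19.4 and 29.7 CPM against 11 and 16.8 CPM (log2 fold change 0.82, SE 0.16, edgeR adjusted p = 0.00678, call lost without the pool term). Most of the MHC class I and peptide loading genes were not called, with 4 of 14 (28.6%) higher in CD4+ cells and none in CD8+ cells (median -0.18). H2-K1 had 2649 and 2496 CPM in CD4+ and 1858 and 1964 CPM in CD8+ cells (log2 fold change -0.43, SE 0.08, edgeR adjusted p = 0.00726, call lost with pool 1 left out). The H2, Gbp and Oas genes have close relatives among which reads can be split.

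CD8+ cells expressed more of the cell cycle machinery. Each of the 22 mitosis genes and 24 of 27 DNA replication genes were higher in CD8+ cells, and none was higher in CD4+ cells, where 12.1% and 12.8% of all genes tested were called in these directions. The median log2 fold changes were 0.67 and 0.71. Mki67, the proliferation antigen, had 1912 and 1919 CPM in CD4+ and 3047 and 2788 CPM in CD8+ cells (log2 fold change 0.61, SE 0.08, edgeR adjusted p = 0.00126). Mcm7, a subunit of the replicative helicase, had 109 and 99.9 CPM and 205 and 189 CPM (log2 fold change 0.92, SE 0.07, edgeR adjusted p = 1.10e-04), and Bub1b, a kinase of the spindle checkpoint, 147 and 151 CPM and 277 and 247 CPM (log2 fold change 0.81, SE 0.08, edgeR adjusted p = 3.05e-04). Rpa2, which coats single-stranded DNA, had 128 and 118 CPM in CD4+ and 226 and 225 CPM in CD8+ cells (log2 fold change 0.87, SE 0.09, edgeR adjusted p = 2.84e-04). The shift was alike in both pools, with list medians of 0.66 and 0.71 for mitosis and of 0.75 and 0.77 for DNA replication. Pcna and Tyms were among the 3 replication genes not called, at 0.42 (SE 0.19) and 0.36 (SE 0.14) on the log2 scale. Members of these lists rise and fall together in dividing cells and are not independent of each other.

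Most metabolic genes were not called. Of 22 glycolysis genes, 8 (36.4%, beside 12.1% of all genes tested) were higher in CD8+ and 1 (4.55%) higher in CD4+ cells (median 0.17). Pfkp, the platelet form of phosphofructokinase, had 343 and 379.6 CPM in CD4+ and 488 and 499.6 CPM in CD8+ cells (log2 fold change 0.45, SE 0.08, edgeR adjusted p = 0.00353), and Ldha and Pkm, late enzymes of the pathway, were not called. The 1 gene higher in CD4+ cells was Ldhb, which was low, with 1.88 and 1.07 CPM against 0.561 and 0.327 CPM (log2 fold change -1.72, SE 0.36, edgeR adjusted p = 0.00953, call lost with pool 1 left out). Of 45 oxidative phosphorylation genes, 7 (15.6%) were higher in CD8+ cells, a share near the 12.1% of all genes tested, and none was higher in CD4+ cells. The median was 0.23, but the list medians of the pools were unlike, at 0.07 in pool 1 and 0.40 in pool 2. Atp5b, a catalytic subunit of ATP synthase, had 828 and 711 CPM in CD4+ and 1045 and 923 CPM in CD8+ cells (log2 fold change 0.36, SE 0.07, edgeR adjusted p = 0.00988, call lost without the pool term and with pool 2 left out). Of 22 genes of fatty acid uptake and oxidation, 5 (22.7%) were higher in CD8+ and none higher in CD4+ cells (median 0.17). Of 29 glutathione genes, 7 (24.1%) were higher in CD8+ and 2 (6.90%) higher in CD4+ cells (median 0.22), including Gsto1, an omega class transferase, with 19.8 and 20 CPM in CD4+ and 59 and 49.9 CPM in CD8+ cells (log2 fold change 1.45, SE 0.11, edgeR adjusted p = 6.67e-05), and the ribonucleotide reductase genes Rrm1 and Rrm2, which also belong to DNA replication. Tpi1 and other glycolysis genes have processed copies in the genome that can take reads.

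Of 20 genes of the BCL2 family and death receptors, 2 (10%) were higher in CD8+ and 4 (20%) higher in CD4+ cells, shares not far from those of all genes tested, and 14 were not called (median -0.10). Bbc3, which encodes the pro-apoptotic PUMA, had 27.7 and 39.4 CPM in CD4+ and 15.4 and 16.2 CPM in CD8+ cells (log2 fold change -1.07, SE 0.17, edgeR adjusted p = 0.00295). The T cell receptor complex and its signaling proteins comprised 20 genes, of which 1 (5%) was higher in CD8+, 9 (45%) higher in CD4+ cells and 10 not called (median -0.30). Trat1, an adaptor that stabilizes the receptor, had 10.3 and 11.1 CPM in CD4+ and 0.216 and 0.245 CPM in CD8+ cells (log2 fold change -5.50, SE 0.26, edgeR adjusted p = 7.78e-06). Cd6 and Cd5, scavenger receptors that dampen T cell signaling, had 361 and 425 and 367 and 385 CPM, respectively, in CD4+ and 116 and 96.9 and 191 and 163 CPM in CD8+ cells, with log2 fold changes of -1.88 (SE 0.12) and -1.09 (SE 0.11). Lck and Ptprc, the first kinase of the cascade and its phosphatase CD45, were not called.

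Beyond the lists, the genes with the largest differences at a mean log2 CPM of at least 3 were read off. After Cd8a, the largest in CD8+ cells was Smyd1, a methyltransferase gene near Cd8b1 on chromosome 6, from 71213940 to 71262281, with 0.282 and 0.222 CPM in CD4+ and 28 and 37.6 CPM in CD8+ cells (log2 fold change 7.0, SE 0.23, edgeR adjusted p = 2.70e-06). Krcc1, which lies between Smyd1 and Cd8b1, was not called (log2 fold change -0.23, SE 0.17). Adgrg5 and Adgrg1, adhesion G protein-coupled receptors that are neighbors on chromosome 8, had log2 fold changes of 5.55 (SE 0.26) and 4.79 (SE 0.18). Adgrg1, also known as GPR56, had 0.706 and 0.933 CPM in CD4+ and 24.2 and 21.7 CPM in CD8+ cells. BC035044, Bend4 and Rcn3 followed, at 4.05 (SE 0.18), 3.73 (SE 0.12) and 3.51 (SE 0.15). In CD4+ cells, Cd4 was followed by Lgals7, a galectin, with 12.4 and 9.56 CPM in CD4+ and 0.173 and 0.164 CPM in CD8+ cells (log2 fold change -5.98, SE 0.28, edgeR adjusted p = 7.78e-06). Ifi204, a DNA sensor of the interferon-inducible p200 family, had 40.5 and 33.7 CPM and 0.949 and 1.14 CPM (log2 fold change -5.13, SE 0.20, edgeR adjusted p = 3.21e-06). Asb2, a subunit of ubiquitin ligases, and Tbc1d4, a regulator of glucose transporter traffic, had log2 fold changes of -3.80 (SE 0.18) and -3.44 (SE 0.18). Krcc1 aside, the 2 CD8+ and 2 CD4+ libraries did not overlap in any of these genes, as the rule for naming them required.

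Among the markers of other cells of the liver, those of hepatocytes were low, whereas the sums of lists that hold genes also expressed by T cells were not. The 16 hepatocyte markers in the table summed to 1.65 and 3.47 CPM in CD4+ and to 1.68 and 2.86 CPM in CD8+ libraries, with Trf the most abundant, and albumin (Alb) was at most 0.311 CPM. The 14 macrophage markers summed to 8.10 and 17.2 CPM in CD4+ and to 28.1 and 37.1 CPM in CD8+ cells. Most of the latter was Cd68, with 5.93 and 6.93 CPM in CD4+ and 27.2 and 27.8 CPM in CD8+ cells (log2 fold change 2.10, SE 0.12, edgeR adjusted p = 1.64e-05), while C1qa and Adgre1 did not exceed 1.06 CPM in any library. Several macrophage and endothelial markers moved with the pools. Cd5l had 0.0942 and 1.29 CPM in CD4+ and 0.0863 and 1.23 CPM in CD8+ cells, Csf1r 0.0942 and 0.80 CPM and 0.0431 and 0.572 CPM, and Stab1 0.0471 and 0.622 CPM and 0.0863 and 1.68 CPM, so that each was higher in pool 2 in both lineages. Their part in the differences between pools was not tested. The 11 dendritic cell markers summed to 49.5 and 56.8 CPM in CD4+ and to 225 and 251 CPM in CD8+ cells. Nearly all of the sum in CD8+ cells was Itgax, and 3 of the 11, Clec9a, Siglech and Cd209a, had no read in the 4 libraries. Cd74, the invariant chain of MHC class II, was higher in CD4+ cells, at 19.1 and 22.5 CPM against 2.63 and 4.54 CPM (log2 fold change -2.55, SE 0.19, edgeR adjusted p = 8.31e-05).

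The 11 NK cell markers summed to 248 and 211 CPM in CD4+ and to 1020.5 and 1267 CPM in CD8+ cells. Gzma made up most of that sum, and 4 of the 7 members tested (57.1%, beside 12.1% of all genes tested) were higher in CD8+ cells. Ncr1, which encodes the NK receptor NKp46, did not exceed 0.424 CPM. The 13 neutrophil and monocyte markers summed to 96.4 and 66.1 CPM in CD4+ and to 165 and 208 CPM in CD8+ cells. That sum was almost wholly Ly6c2, which effector T cells express as well. The 10 B cell markers summed to 33.7 and 42.3 CPM in CD4+ and to 25.2 and 28.7 CPM in CD8+ cells, with Cd22 higher in CD4+ cells (log2 fold change -1.41, SE 0.16, edgeR adjusted p = 5.06e-04) and Cd79b higher in CD8+ cells (log2 fold change 2.80, SE 0.21, edgeR adjusted p = 8.48e-05), while Ms4a1 had no read. The 10 endothelial markers summed to 199 and 195 CPM in CD4+ and to 117 and 126 CPM in CD8+ cells, nearly all of it Pecam1, which T cells express. The 8 stellate cell or fibroblast markers summed to at most 0.475 CPM, the 9 red cell or platelet markers to at most 2.31 CPM and the 4 gamma delta T cell markers to at most 3.39 CPM. The part of such cells in the lineage differences was not tested.

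To see whether these lineage differences depended on the donor genotype, the contrast in STAT3-/- donors was set against that in WT donors and in STAT3-/-PD-1-/- donors, which rest on other libraries. In WT donors 2991 genes were called and in STAT3-/-PD-1-/- donors 1774. Of the 3077 genes called in STAT3-/- donors, 3024 had the same direction in WT donors and 2962 in STAT3-/-PD-1-/- donors. These genes were selected by their call in STAT3-/- donors, and the same count was not taken over all genes tested. Over all genes tested, the log2 fold changes in STAT3-/- donors correlated with those in WT donors with r = 0.818. With those in STAT3-/-PD-1-/- donors, r was 0.768. The genes called in both STAT3-/- and WT donors in the same direction made up 71% of the STAT3-/- and 73.1% of the WT genes, and the genes shared with STAT3-/-PD-1-/- donors 44.3% of the STAT3-/- and 76.8% of the STAT3-/-PD-1-/- genes. The difference between the contrasts of STAT3-/- and WT donors was called for 0 genes (0%) by edgeR's quasi-likelihood test, while DESeq2 called 23. With edgeR, 631 of the 12334 genes tested had an unadjusted p under 0.05, near the share that this threshold gives without any difference. The smallest p was that of Faxc, with a CD8+ over CD4+ log2 fold change of 1.95 in STAT3-/- and 3.94 in WT donors (edgeR adjusted p of the difference = 0.138), and the second that of Ccl5, with 1.77 and 2.89 (edgeR adjusted p = 0.143). Neither passed the threshold. The list medians in STAT3-/- and WT donors were 0.67 and 0.57 for mitosis and -1.22 and -1.78 for cytokines. For the NK cell receptors and adaptors they were 0.77 and 2.01.

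Against STAT3-/-PD-1-/- donors, the difference between the contrasts was called for 22 genes, or 0.178% of those tested, 10 with a higher and 12 with a lower CD8+ over CD4+ ratio in STAT3-/- donors, and 1214 genes had an unadjusted p under 0.05. Without the pool term, or with the replicate number as the block, none of the 22 was called. DESeq2 with a term for each pool called 85 genes. With genes under a mean log2 CPM of 3 left out, 5 of the 10 genes flagged below were called, Tcf7 not among them. For 20 of the 22, the absolute log2 fold change between the lineages was larger in STAT3-/- donors. Ikzf2 had 123 and 112 CPM in CD4+ and 44.1 and 39.7 CPM in CD8+ cells of STAT3-/- donors, but 43.7 and 28.2 CPM and 43.3 and 27.5 CPM in STAT3-/-PD-1-/- donors. Its CD4+ and CD8+ levels were thus apart in the former and alike in the latter (log2 fold changes -1.49 and -0.02, difference -1.46, SE 0.12, edgeR adjusted p = 0.0147). Tcf7 had 18 and 24.7 CPM in CD4+ and 11.9 and 22.8 CPM in CD8+ cells of STAT3-/-PD-1-/- donors, where the CD4+ cells lacked the higher level found in STAT3-/- donors (difference -1.75, SE 0.19, edgeR adjusted p = 0.026). Ccl5 had 69 and 70.3 CPM in CD4+ and 105 and 98.4 CPM in CD8+ cells of STAT3-/-PD-1-/- donors, and its lineage ratio was smaller there (difference 1.23, SE 0.13, edgeR adjusted p = 0.026). Ccl4, another chemokine, was higher in CD8+ cells of STAT3-/- donors and lower in CD8+ cells of STAT3-/-PD-1-/- donors, with 86.1 and 21.8 CPM in CD4+ and 47.7 and 13.2 CPM in CD8+ cells there. The 22 genes also include Cd8b1, whose level in CD8+ cells of STAT3-/-PD-1-/- donors was 554 and 584 CPM (log2 fold change 5.10, difference 1.62, SE 0.22, edgeR adjusted p = 0.0471), and Eomes, with log2 fold changes of 3.04 and 1.35 (difference 1.69, SE 0.22, edgeR adjusted p = 0.0416). Residual levels of the CD8 chains in CD4+ cells were higher in STAT3-/-PD-1-/- donors, with Cd8b1 at 2.54% and 3.32% of the CD8+ level, which itself was lower there, and Cd8a at 0.189% and 0.957%. Cd4 in their CD8+ cells was at 0.0401% of the CD4+ level in pool 1, within the STAT3-/- values, and at 0.220% in pool 2. The part of these residual levels in the smaller differences was not tested. None of the mitosis or DNA replication genes was among the 22, and their list medians in STAT3-/-PD-1-/- donors were 0.16 and 0.33.

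**Figure D5:**
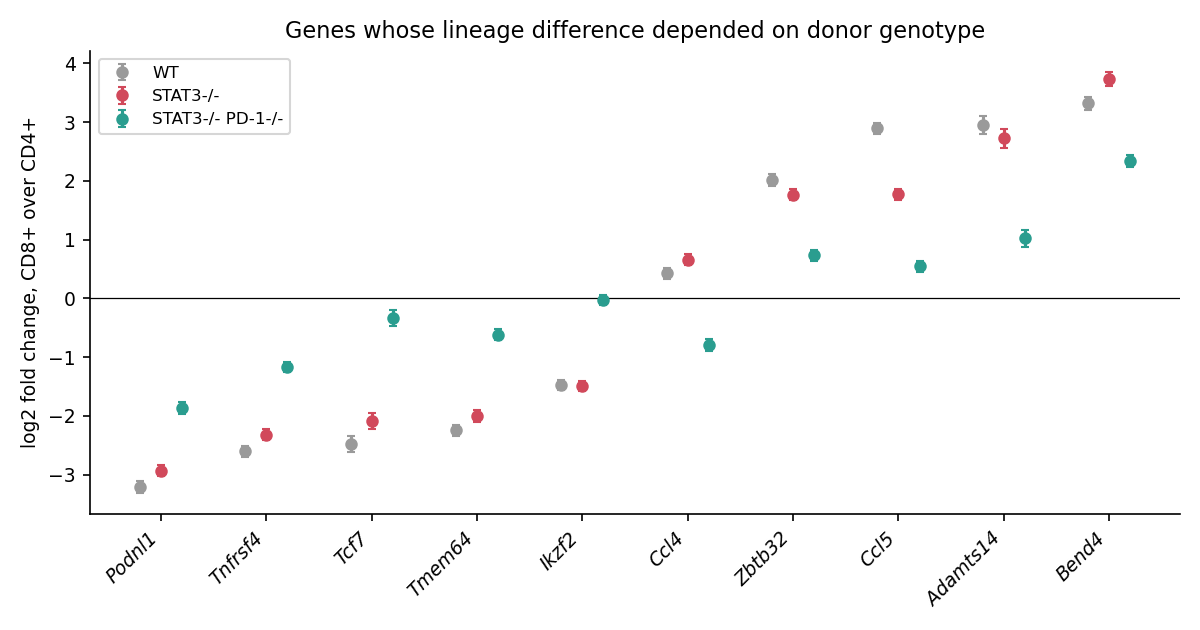
Log2 fold change of CD8+ over CD4+ T cells with its standard error by donor genotype (WT, STAT3-/-, STAT3-/-PD-1-/-), for the 5 genes with the smallest p of the difference in each direction, at a mean log2 CPM of at least 3, among those whose contrast differed between STAT3-/- and STAT3-/-PD-1-/- donors. The genes were chosen for that difference, which the plot therefore shows by construction. For Ikzf2 the value was -1.49 in STAT3-/-, -1.47 in WT and -0.02 in STAT3-/-PD-1-/- donors.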

How the data were processed

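The authors mapped the reads of the 12 libraries to mm10 with STAR, assigned them to RefSeq genes with HTSeq-count, and deposited a table of raw read counts per gene and a table of RPKM values (the submitters' notes name both GRCm38 and mm10). Whether the counting used strand is not given in the sources used here, and the growth and treatment protocols in the labels describe adipocyte cultures, not these cells, and were disregarded. The deposited counts were tested, and the deposited RPKM values served only for levels per length and for 1 alternative. Of 25078 rows, 26 carried gene names turned into dates and could not be named.

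Low genes were removed with filterByExpr (10 counts at least, 15 in total), and the rest scaled by TMM and fitted with edgeR 4.0.16 (R 4.3.3) over the 12 libraries, with a term for each of the pools and a CD8+ term for each genotype, which left 3 residual degrees of freedom (prior 5.28). Calls used a Benjamini-Hochberg adjusted p under 0.05. The interactions are differences between the CD8+ terms. The step was tested on simulated data, and the outcome is not given here. An exact permutation test of 2 against 2 libraries cannot go below p = 0.333. Library totals ran from 21676125 to 24551477 counts.

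According to the study's supplement both lineages came from the same livers. Equal replicate numbers were taken to mark the same livers, and the deviations of same-numbered CD4+ and CD8+ libraries from the group means correlated across genes with r = 0.583 in STAT3-/-, 0.588 in WT and 0.646 in STAT3-/-PD-1-/- donors. Same-numbered libraries of 1 lineage from STAT3-/- and WT donors, which are other livers, correlated as much (0.630 for CD4+, 0.651 for CD8+), and those of STAT3-/- and STAT3-/-PD-1-/- donors less (0.199 for CD4+, 0.0601 for CD8+). In STAT3-/- and WT donors the correlation therefore does not tell shared livers from a difference that same-numbered libraries of these genotypes share. The titles of each replicate number form a series of their own. With a term for each pool, p-values measure how much the lineage difference within a pool varied between pools, over the 3 genotypes.

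The members and gene lists were chosen with earlier results of these data known. Genes named are the co-receptors, Stat3 and Pdcd1, the 10 largest called differences each way at a mean log2 CPM of at least 3 without overlap, up to 4 called members of each list by p and 2 abundant members not called, up to 5 called interactions each way, and the 3 most abundant genes of each marker list. Some genes of the lists are not reported here. Further genes, and the promoter motifs, were chosen after their values were seen. Alternatives were DESeq2 1.42.0, limma 3.58.1 on log2(RPKM + 1), other scalings and filters, no pool term, the replicate number as the block, the 4 STAT3-/- libraries alone, and leaving out each replicate. The replicate number as a block for the interactions was added after seeing the data.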

Additional observations from a re-analysis of the deposited data

Results flagged for a closer look

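The lineage difference of 22 genes differed between STAT3-/- and STAT3-/-PD-1-/- donors by a test of the difference itself (edgeR, interaction term, adjusted p under 0.05), and the values of 10 are given, the 5 with the smallest p each way at a mean log2 CPM of at least 3. The CD8+ over CD4+ log2 fold change was higher in STAT3-/- donors by 1.45 for Ccl4, 1.23 for Ccl5, 1.40 for Bend4, 1.71 for Adamts14 and 1.03 for Zbtb32. It was lower in STAT3-/- donors, with differences of -1.46 for Ikzf2, -1.75 for Tcf7, -1.39 for Tmem64, -1.16 for Tnfrsf4 and -1.07 for Podnl1. None of the 10 was called without the pool term or with the replicate number as the block, and 5 of the 10 were called when genes under a mean log2 CPM of 3 were left out of the fit. With pool 1 of STAT3-/- donors left out the call of Bend4 was lost, and with pool 2 left out those of Bend4, Zbtb32 and Podnl1. The cause was not tested.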

How the results depend on the processing

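The 3077 genes that differed between the lineages became 1187 without the pool block, 1909 with the replicate number as the block, 500 with the 4 STAT3-/- libraries alone and no block, and 848 at an absolute log2 fold change of at least 1. With 1 library left out and no block, 439 to 773 genes were called (589 and 592 in the other 2 cases), and the lone library of a lineage was then assumed to vary like the other groups. DESeq2, limma, the other scalings and filters, the 4 libraries with the block, and leaving out 1 pool gave counts within 1.5 times of it. The cause of the lower counts without the block was not tested. Against WT donors the difference of the contrasts was called for 0 genes in each alternative but DESeq2, which called 23. Against STAT3-/-PD-1-/- donors the 22 genes became 85 with DESeq2, 0 without the block or with the replicate number as the block (the latter chosen after seeing the data), and 5 at a mean log2 CPM of at least 3. Of the genes named in the text or by the rule, 19 lost the call with the replicate number as the block. Without the block 37 did, and no called gene turned in either setting. Those without the block included Cd247, Xcl1, Pdcd1, Havcr2, Tox, Tnf, Srgn, Cd28, Il10, Nr4a1, Bhlhe40, Ctla4, Ccl4, Atp5b, Tpi1, Il10rb, Mx1, Gzmc, Gzmf and Il17a. Leaving out pool 1 lost 18 calls and pool 2 lost 17, among them Cd247, Pdcd1, H2-K1, Il2rg, Tox, Ctla4, Cxcr5, Gzmf, Il17a, Ldhb and Srgn without pool 1, and Atp5b, Tox, Tpi1, Bhlhe40, Gzmc, Havcr2 and Il17a without pool 2. Among the genes named and called, directions turned only with 1 library left out and no block, in genes whose pools stood apart. Without the first CD4+ library the log2 fold change was 0.0168 for Cd28, 0.46 for Il10, 1.44 for Nr4a1, 0.82 for Bhlhe40 and 0.84 for Ctla4. Without the second CD8+ library it was 0.00028 for Nr4a1, 0.21 for Bhlhe40 and 0.10 for Ctla4, and without the first CD8+ library -0.10 for Xcl1. With 2 pools a group, small differences in genes of few counts were not detectable.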

Other observations

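Some genes with lineage differences were neighbors among the genes tested, and genes that were not tested can lie between them. Of 9 runs of at least 3 neighbors called in 1 direction at an absolute log2 fold change of at least 1, 6 were higher in CD8+ and 3 higher in CD4+ cells. On chromosome 13, from 113035379 to 113218104 (mm10), Cdc20b, Gpx8, Gzma, Gzmk and Esm1 were neighbors among the genes tested and were each higher in CD8+ cells. On chromosome 10 the neighbors of Prf1, Adamts14 and Pald1, were higher in CD8+ cells as well. On chromosome 8 the metallothionein genes Mt3, Mt2 and Mt1, which encode metal-binding proteins, were higher in CD8+ cells. Mt3 was called in 6 of the 15 alternatives run on it. Mt1 had 11.3 and 5.16 CPM in CD4+ and 26.8 and 16.4 CPM in CD8+ cells (log2 fold change 1.43, SE 0.17, edgeR adjusted p = 7.06e-04). Whether the counting used strand is not stated, so that reads of overlapping neighbors cannot be told apart. The runs higher in CD4+ cells were Cdk5r1, Myo1d, C030013C21Rik and Ccl1 on chromosome 11, from 80477023 to 82179812, Gata3 with 4930412O13Rik and 9230102O04Rik on chromosome 2, and Gm4951, Gm4841, F830016B08Rik and Iigp1, the last an interferon-inducible GTPase, on chromosome 18. These genes were chosen after their values were seen, and no test of clustering was made.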
